A study of Mus musculus with 6 samples.

Results

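The transcripts described here come from 4 mouse genes that carry small nucleolar RNAs (snoRNAs) inside their own sequence, Rack1, Snhg4, Snhg8 and Snhg12. Their members are the deposited transcript models with at least 50% of their bases in the RefSeq span of one of these genes, leaving out models that cover a whole snoRNA gene and are at most 8 times its length. The rule gave 5 models of 7959, and it left out 2 models, over Snora74a and Snora61. The RNA came from MEL cells, an erythroleukemia line of mouse labelled as strain C57BL/6, whose chromatin was fixed with formaldehyde. All 6 libraries share that line and the fixation. Chromatin for 2 libraries was captured with TH59-DB, a probe built from pyrrole-imidazole polyamide that is directed at telomere repeats. A masked form of the probe, the negative control in the labels, was used for 2 more, and 2 libraries held the input chromatin without capture. The labels do not say whether the 2 libraries of a group are separate cultures. All p-values therefore measure only the spread between these libraries, which may be technical.

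Box C/D and box H/ACA snoRNAs guide the chemical modification of ribosomal and other RNAs. In vertebrates most of them lie in introns, and they are cut out of the spliced intron of a host transcript, which may be an mRNA or a noncoding RNA. Many noncoding hosts carry Snhg names, and many noncoding hosts begin with a run of pyrimidines, as ribosomal protein mRNAs do. Rack1 encodes a scaffold protein that binds protein kinase C and sits on the small ribosomal subunit, so its exons give an abundant cytoplasmic mRNA.

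The Rack1 model had the most blocks of the 5. It had 8 blocks of 35 to 217 bases on chromosome 11 (mm10, chr11:48800359-48806015, plus strand), 1037 bases in all. The snoRNA genes Snord96a, Snord95 and LOC115485831 lie in gaps between its blocks and shared no base with it. The Snhg4 model was a single block of 149 bases on chromosome 18 (chr18:35554443-35554591, plus strand), 25 of which lie in the miRNA gene Mir1949. The Snhg12 model was a single block of 162 bases on chromosome 4 (chr4:132308730-132308891, plus strand), beginning 52 bases after the annotated start of the gene and touching none of its 4 snoRNA genes.

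Snhg8, on the minus strand of chromosome 3, had 2 overlapping models. The spliced model joined blocks of 162 and 30 bases (chr3:123508112-123508273 and chr3:123507833-123507862) around the snoRNA gene Snora24. The single-block model of 239 bases (chr3:123507947-123508185) was labelled with the plus strand, opposite to the gene. It held 120 of the 130 bases of Snora24, so it stayed among the members only because 10 snoRNA bases were missing, and it shared 74 bases with the spliced model. Reads of the 2 models can therefore be the same reads, and sense and antisense reads were not known to be told apart by the counting. The RefSeq table used here holds gene spans and no exons, so whether a block is an exon was not checked.

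**Figure D1:**
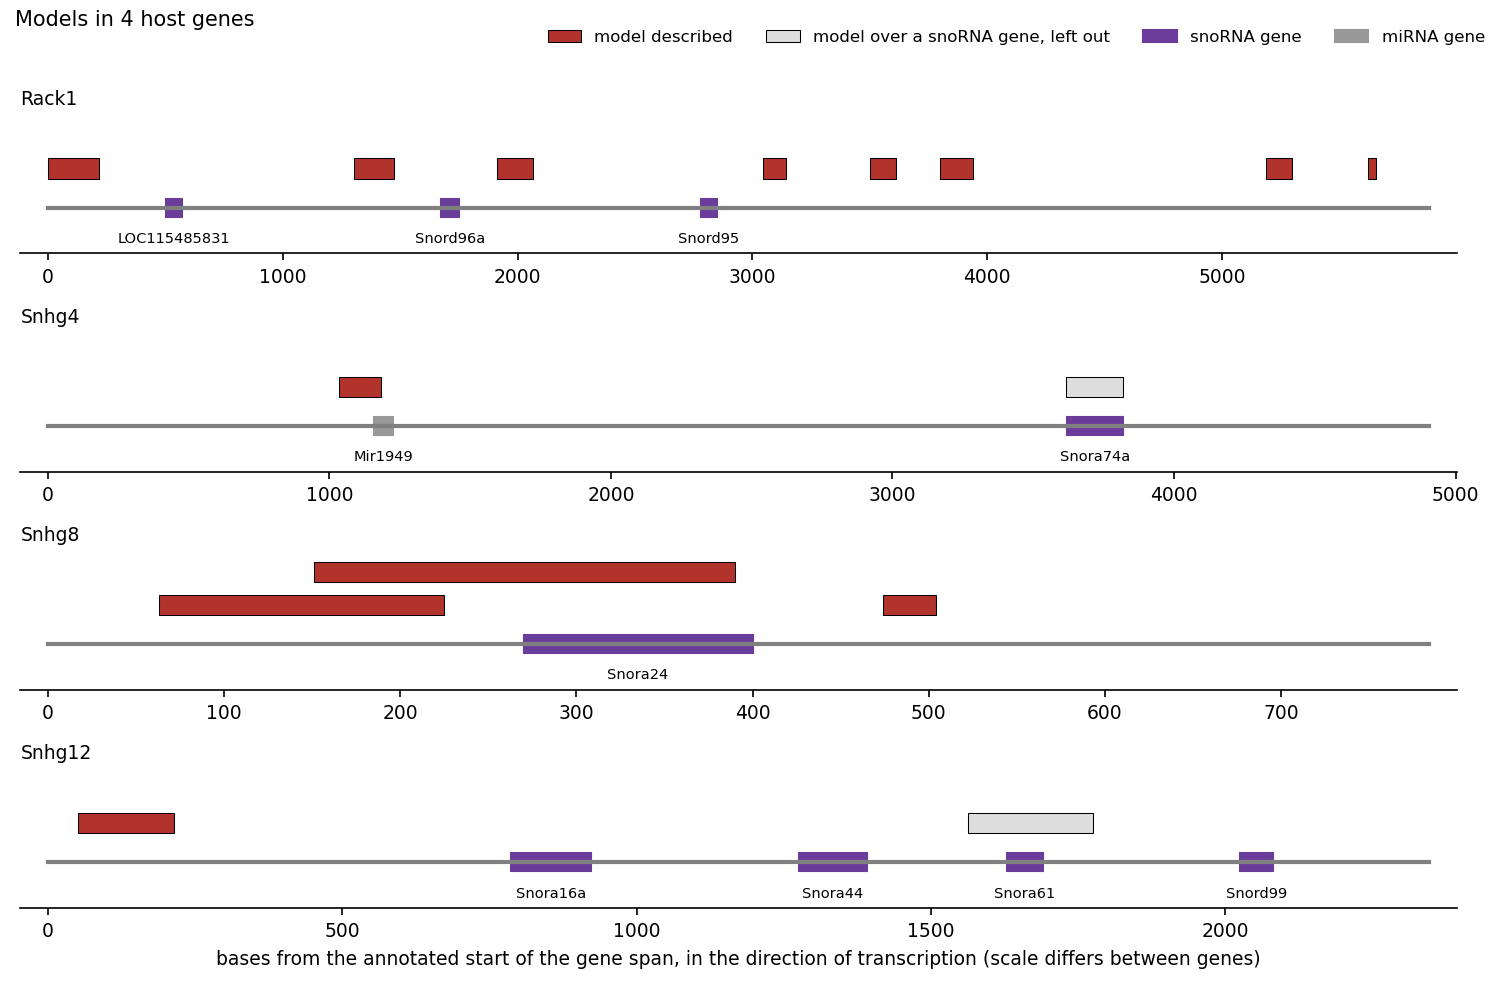
Position of the transcript models in the spans of the 4 host genes, in bases from the annotated start, with the snoRNA and miRNA genes on the grey span line. Blocks of Rack1 leave the snoRNA genes free, while 1 of the 2 Snhg8 models covers 120 bases of Snora24, and the grey models lie over Snora74a and Snora61.

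The sequence around the annotated start is shown for 3 hosts because a pyrimidine run at the start is a feature that the choice of members did not use. Each line runs from 60 bases before the start to 15 bases from it, from RefSeq on GRCm38.p6. Capitals mark the longest run of C and T that touches the 11 bases centred on the start, searched on the strand of the gene.
Rack1 (chr11:48800300-48800374, plus strand): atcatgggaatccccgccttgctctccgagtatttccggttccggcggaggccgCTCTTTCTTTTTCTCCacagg
Snhg12 (chr4:132308618-132308692, plus strand): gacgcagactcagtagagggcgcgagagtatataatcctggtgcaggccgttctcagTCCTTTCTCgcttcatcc
Snhg8 (chr3:123508322-123508396, minus strand): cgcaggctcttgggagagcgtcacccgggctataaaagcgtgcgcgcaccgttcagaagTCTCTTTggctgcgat
The run was 16 bases long in Rack1, 9 in Snhg12 and 7 in Snhg8. Of 32851 start windows of mouse genes in the same table, 1.19%, 6.89% and 14.1% had a run at least that long, in the same order of genes. The letters TATA stood 30 bases before the start in Snhg8 and Snhg12 and were not found in the Rack1 window. TATA occurred between 40 and 16 bases before the start, on the strand of the gene, in 5.91% of all windows. These matches describe letters only.

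Library totals ran from 1803723 to 3122558 reads, of which 35.7% to 69.2% lay in the models. A level in CPM is the read count as a share of this total, scaled so that 1 read was 0.320 to 0.554 CPM. A CPM is a share of its library, so less of an RNA and more of the others cannot be told apart. In masked TH59-DB 1, 50.8% of all reads lay in a single model and 4341 models had 0 reads. No model had under 5 reads in TH59-DB 1, against a lowest count of 0 in each other library. In TH59-DB 1, 99.3% of models had at least 10 reads, against 30.3% (masked TH59-DB 1) to 58.7% (masked TH59-DB 2) in the others. RNAs with few reads in TH59-DB 1 are thus missing from the deposited models. Medians and shares over all tested models below share this limit, so they are no neutral reference for a model low in TH59-DB. The 2 libraries of a group had a Spearman correlation across models of 0.568 (TH59-DB), 0.6996 (masked) and 0.921 (input). Of 16 erythroid marker genes 7 had a model, among them the erythroid factors Gata1 and Klf1, and the globin genes had none. Their summed level was 507 and 423 CPM in TH59-DB libraries, 503 and 1107 in masked libraries and 837 and 1154 in the input. Of 10 markers of other blood cells 2 had a model (Laptm5 and Itga2b), and of 6 fibroblast and epithelial markers 0 had one. Laptm5 and Itga2b summed to 42.7 and 7.72 CPM in TH59-DB libraries, 4.06 and 39.1 in masked libraries and 24.1 and 49.4 in the input. The part of library make-up or markers in the results below was not tested. Terc, the telomerase RNA, had 31330 and 13957 CPM in TH59-DB libraries, 77.1 and 47.7 in masked libraries and 33.5 and 23.8 in the input.

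None of the 5 host gene models had a difference between fractions that passed edgeR's test fitted by group alone. Rack1 and Snhg4 had the widest gap, with mean CPM 5.05-fold and 5.69-fold lower in TH59-DB capture than in the input, against ratios of TH59-DB to input of 1.37 and 0.753 for the spliced and single-block Snhg8 models and 0.960 for Snhg12. By edgeR's quasi-likelihood test on counts (Benjamini-Hochberg adjusted p under 0.05 over 5385 tested models, 2-sided), 0 of 5 passed in either direction in all 3 comparisons. All 5 passed the filter on low counts. At an unadjusted p under 0.05, Rack1 and Snhg4 were lower in TH59-DB than in the input, as were 5.14% of all tested models, and 0 of the 5 were past it in the other 2 comparisons. DESeq2 called 1 of the 5 (Rack1, lower in TH59-DB than in the input, as were 0.714% of the models it tested) and 0 in the other comparisons, where it gave no adjusted p for Snhg12 in masked TH59-DB against input. Over all tested models edgeR called 1.41% higher and 0.0% lower in TH59-DB than in masked TH59-DB. It called 3.58% higher and 0.0371% lower in TH59-DB than in the input, and 0.26% higher and 0.0% lower in masked TH59-DB than in the input.

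**Figure D2:**
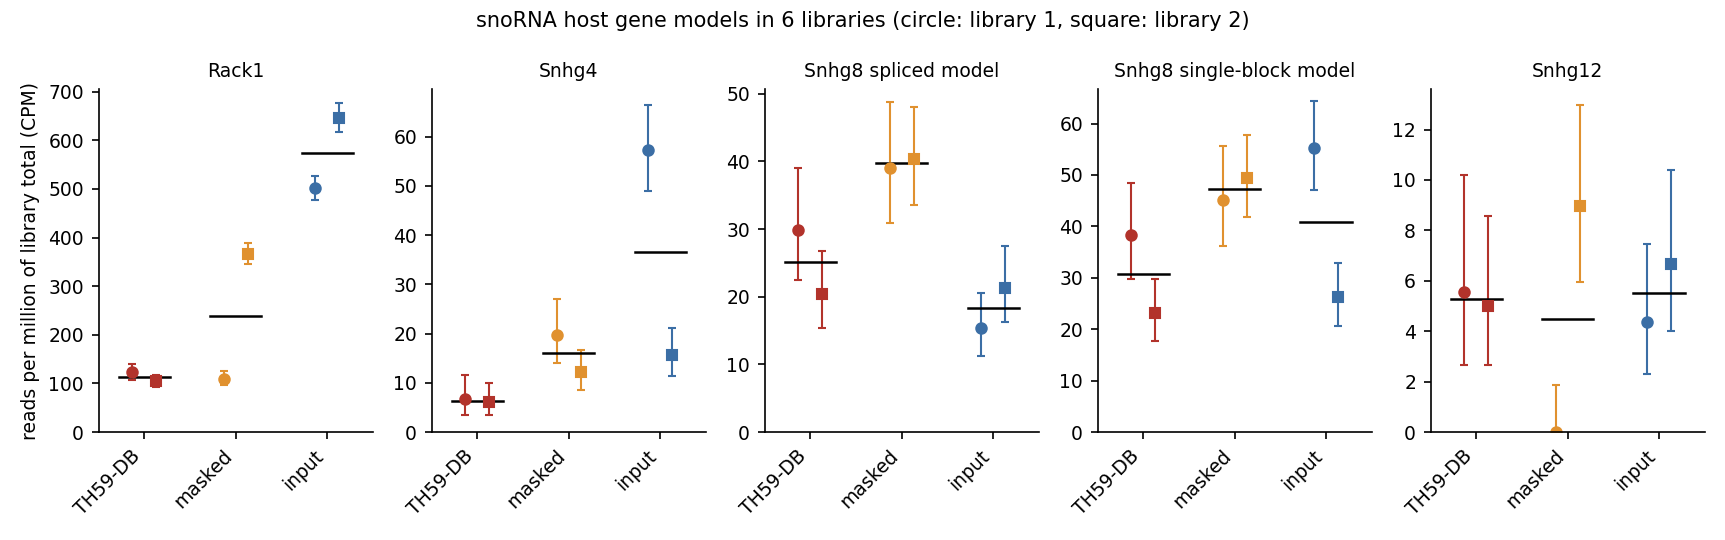
Level of each model in CPM on linear axes from 0, with circles for library 1, squares for library 2, bars for the 95% exact Poisson interval of the read count and a black line for the mean of the 2 libraries. Rack1 lies at 123 and 104 CPM in TH59-DB and at 501 and 646 in the input, while the spliced Snhg8 model is highest in masked TH59-DB.

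Rack1 was the most abundant of the 5 models by reads in every library. It had 222 and 270 reads in TH59-DB libraries, 217 and 1143 in masked libraries and 1497 and 1845 in the input. In CPM these were 123 and 104 in TH59-DB libraries, 110 and 366 in masked libraries and 501 and 646 in the input. Both TH59-DB libraries lay below both input libraries. The masked libraries stood apart from each other: masked TH59-DB 1 was within the range of the TH59-DB libraries, and masked TH59-DB 2 lay between them and the input.

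The mean of Rack1 was 114 CPM ± 13.3 in TH59-DB libraries, 238 ± 181 in masked libraries and 574 ± 102 in the input (SD, n = 2 each). The ratio of TH59-DB to input was 0.198, and the pooled reads gave 0.196 with a 95% exact binomial interval of 0.178 to 0.215 that covers counting error only. The fitted log2 fold change was -2.28 (SE 0.79, edgeR adjusted p = 0.194), while the median of all tested models in that comparison was 0.03. A lower value was fitted for 1.89% of tested models. DESeq2 gave -1.92 (adjusted p = 0.0291), with a median of 1.26 over all models it fitted, so the 2 values are on different scales. The value was negative in each of 13 alternatives, from -3.01 to -1.63, with adjusted p from 0.0291 to 0.9997.

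Against masked TH59-DB, the Rack1 level in TH59-DB was 0.478 of the masked mean, and the groups overlapped. The fitted log2 fold change was -0.69 (SE 0.76, edgeR adjusted p = 0.937), with a median of 0.30 over all tested models. Leaving out TH59-DB library 1 gave -0.19 and leaving out library 2 gave -1.30. Leaving out masked library 1 gave -1.16 and leaving out masked library 2 gave -0.28. Masked TH59-DB was below the input in both libraries, with a ratio of 0.415 and a log2 fold change of -1.58 (SE 0.77, edgeR adjusted p = 0.770).

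Snhg4, a noncoding host of the H/ACA snoRNA Snora74a, was measured by few reads outside the input. It had 12 and 16 reads in TH59-DB libraries, 39 and 38 in masked libraries and 171 and 45 in the input. The levels were 6.65 and 6.18 CPM in TH59-DB libraries, 19.8 and 12.2 in masked libraries and 57.3 and 15.8 in the input. Both TH59-DB libraries lay below all 4 others, and input 1 was far above the rest.

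The mean of Snhg4 was 6.42 CPM ± 0.335 in TH59-DB libraries, 15.98 ± 5.39 in masked libraries and 36.5 ± 29.4 in the input (SD, n = 2 each). The ratio of TH59-DB to input was 0.176 (pooled reads 0.172, counting interval 0.112 to 0.256). The fitted log2 fold change was -2.63 (SE 0.93, edgeR adjusted p = 0.206), and 0.910% of tested models had a lower value. Without input 1 it was -0.87 (edgeR adjusted p = 0.9997), so its size depended on that library. Leaving out masked library 1 gave -2.62 and leaving out masked library 2 gave -2.59. The Snhg4 model passed in both fits, in which more models of the whole table were called lower than with all 6 libraries. Over 13 alternatives the adjusted p ran from 0.0184 to 0.9997. Against masked TH59-DB the ratio was 0.402 and the log2 fold change -1.14 (SE 0.91, edgeR adjusted p = 0.870). That value was -0.71 with TH59-DB library 1 left out and -1.74 with library 2 left out. It was -0.41 with masked library 1 left out and -1.95 with masked library 2 left out. Masked TH59-DB against input gave -1.49 (SE 0.88, edgeR adjusted p = 0.830), which turned to 0.43 without input 1.

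Snhg8 is a noncoding host of the H/ACA snoRNA Snora24, and its spliced model leaves that snoRNA out. The spliced model had 54 and 53 reads in TH59-DB libraries, 77 and 126 in masked libraries and 46 and 61 in the input. These were 29.9 and 20.5 CPM in TH59-DB libraries, 39.1 and 40.4 in masked libraries and 15.4 and 21.4 in the input. The masked libraries were the highest pair, above both TH59-DB and both input libraries, and TH59-DB overlapped the input.

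The spliced Snhg8 model averaged 25.2 CPM ± 6.69 in TH59-DB libraries, 39.7 ± 0.906 in masked libraries and 18.4 ± 4.21 in the input (SD, n = 2 each). Against masked TH59-DB the log2 fold change was -0.49 (SE 0.61, edgeR adjusted p = 0.949), with a ratio of 0.635. Against the input it was 0.47 (SE 0.62, edgeR adjusted p = 0.888), with a ratio of 1.37 (pooled reads 1.33, counting interval 1.01 to 1.75), and it turned to -0.07 without TH59-DB 2. Masked TH59-DB against input gave 0.96 (SE 0.62, edgeR adjusted p = 0.838), with a ratio of 2.16.

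The single-block Snhg8 model had 38.3 and 23.2 CPM in TH59-DB libraries, 45.2 and 49.3 in masked libraries and 55.3 and 26.3 in the input. Here too both TH59-DB libraries lay below both masked libraries, but the input libraries overlapped both groups. The log2 fold change was -0.47 against masked TH59-DB (SE 0.69, edgeR adjusted p = 0.957) and -0.57 against the input (SE 0.69, edgeR adjusted p = 0.871). The value against the input was 0.50 without input 1. Masked TH59-DB against input gave -0.10 (SE 0.69, edgeR adjusted p = 0.999), and 10 of 13 alternatives turned its sign.

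The 2 Snhg8 models had nearly the same level per length in 5 of the 6 libraries. The single-block level divided by the spliced level, both in CPM per kilobase, was 1.03 and 0.909 in TH59-DB libraries, 0.929 and 0.982 in masked libraries, and 2.88 and 0.988 in the input. Input 1 was the exception. It was also the input library with the higher reading for Snhg4, Snora74a and Snora61, whereas Rack1, Snhg12 and the spliced Snhg8 model were higher in input 2.

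Snhg12 is a noncoding host of Snora16a, Snora44, Snora61 and Snord99. Its model had 10 and 13 reads in TH59-DB libraries, 0 and 28 in masked libraries and 13 and 19 in the input. The levels were 5.54 and 5.02 CPM in TH59-DB libraries, 0 and 8.97 in masked libraries and 4.35 and 6.66 in the input. The count of 0 in masked TH59-DB 1 allows up to 1.52 CPM by the limit of 3 reads, and up to 1.87 CPM by the 95% exact Poisson interval drawn in the plot of levels. Both limits lie below the levels of the other 5 libraries, and that library also had 0 reads in most other models.

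The mean of Snhg12 was 5.28 CPM ± 0.370 in TH59-DB libraries, 4.48 ± 6.34 in masked libraries and 5.50 ± 1.63 in the input (SD, n = 2 each). The log2 fold change was 0.69 against masked TH59-DB (SE 1.52, edgeR adjusted p = 0.972) and 0.04 against the input (SE 1.51, edgeR adjusted p = 0.995). The pooled reads gave ratios of 0.952 (counting interval 0.524 to 1.71) and 0.956 (0.534 to 1.68), which cover counting error only. The SE and the counts of 0 and 28 in the masked libraries leave a wider uncertainty. The value against masked TH59-DB was -0.29 when masked library 1 was left out. With masked library 2 left out it was 6.76 (edgeR adjusted p = 0.0260), where the only masked count left was 0 and the median of all tested models was 5.10. Masked TH59-DB against input gave -0.66 (SE 1.51, edgeR adjusted p = 0.970). That value was 0.30 when masked library 1 was left out and -6.71 when masked library 2 was. In the latter fit the only masked count left was 0 and the median of all tested models was -1.53.

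**Figure D3:**
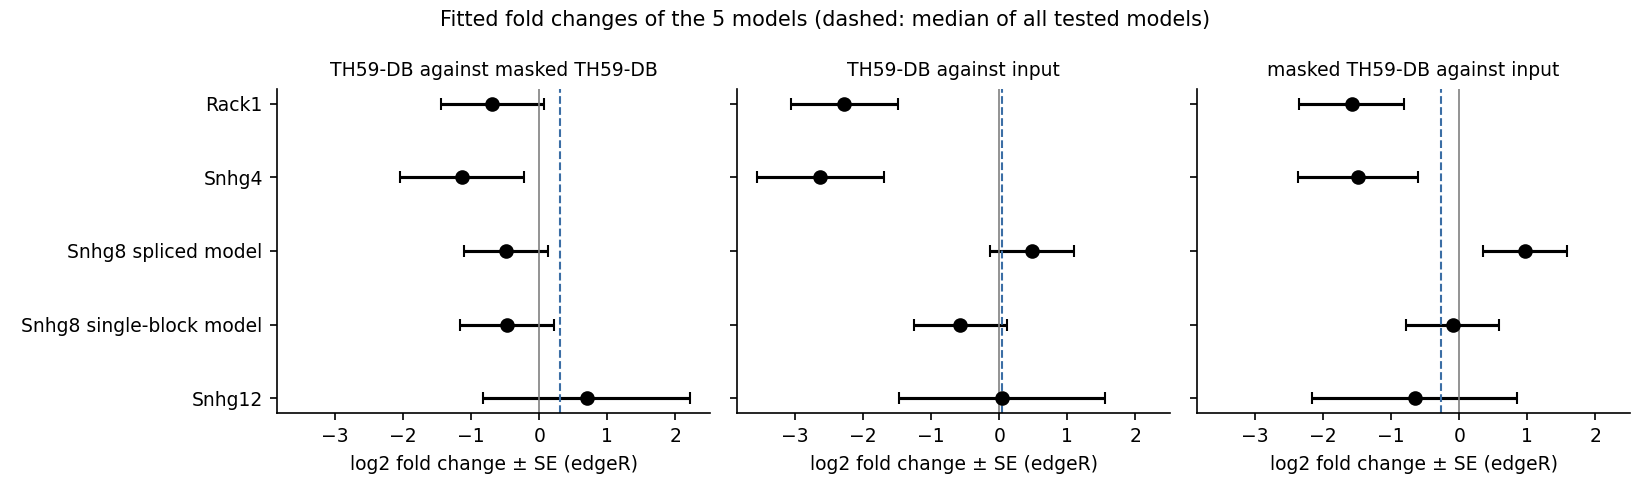
Fitted log2 fold changes of the 5 models with their SE in the 3 comparisons, beside the median of all tested models (dashed). Rack1 at -2.28 and Snhg4 at -2.63 lie farthest from that median in TH59-DB against input, and no value passed the adjusted threshold.

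Counted by library alone, 3 of 5 models had both TH59-DB libraries below both masked libraries (Snhg4 and both Snhg8 models), as did 14.7% of tested models, and 0 of 5 had both above (16.1% of tested models). Against the input, 2 of 5 had both TH59-DB libraries below (Rack1 and Snhg4), as did 23.5% of tested models, and 0 of 5 had both above (22.5%). For masked TH59-DB against input, 1 of 5 lay above (the spliced Snhg8 model, 15.9% of tested models) and 1 of 5 below (Rack1, 14.4%). The 2 Snhg8 models share 74 bases and are not independent. With 2 libraries against 2, the smallest 2-sided p of an exact permutation test is 0.333, so no single value could pass one.

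The order of the hosts differed between fractions when levels were set per length (CPM per kilobase, mean ± SD, n = 2 each). In TH59-DB the spliced Snhg8 model had 131 ± 34.9, the single-block model 129 ± 44.6 and Rack1 110 ± 12.8, which did not differ beyond their spread. Snhg4 at 43.1 ± 2.25 and Snhg12 at 32.6 ± 2.28 followed there. They rest on 12 and 16 reads and on 10 and 13 reads, and their exact Poisson intervals overlap, so their order was not resolved at this depth. In masked TH59-DB the means were 230 ± 175 for Rack1, 207 ± 4.72 and 198 ± 12.3 for the spliced and single-block Snhg8 models, 107 ± 36.2 for Snhg4 and 27.7 ± 39.1 for Snhg12. All but Snhg12 lay within the spread of Rack1. In the input Rack1 led with 553 ± 98.7, ahead of Snhg4 at 245 ± 197, the single-block Snhg8 model at 171 ± 85.8, the spliced model at 95.8 ± 21.9 and Snhg12 at 34.0 ± 10.0. The 3 in the middle of that order overlapped each other.

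A ratio of 2 hosts within 1 library does not depend on the library total. Rack1 per length was 0.761 and 0.943 of the spliced Snhg8 model in TH59-DB libraries, 0.522 and 1.68 in masked libraries, and 6.03 and 5.60 in the input. All 4 capture libraries lay below both input libraries, and no test was run on these ratios. The share of all tested models with such a separation was not computed. The spliced Snhg8 model was itself higher in both masked libraries than in both input libraries. Snhg4 per length was 0.286 and 0.389 of the spliced Snhg8 model in TH59-DB libraries, 0.653 and 0.389 in masked libraries, and 4.79 and 0.951 in the input. Here too captures and input did not overlap. In CPM, however, Snhg4 overlapped between the masked libraries (19.8 and 12.2) and the input (57.3 and 15.8). The separation of these 2 groups thus depended on the divisor. Snhg12 per length was 0.219 and 0.291 of the spliced Snhg8 model in TH59-DB libraries, 0 and 0.263 in masked libraries, and 0.335 and 0.369 in the input.

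**Figure D4:**
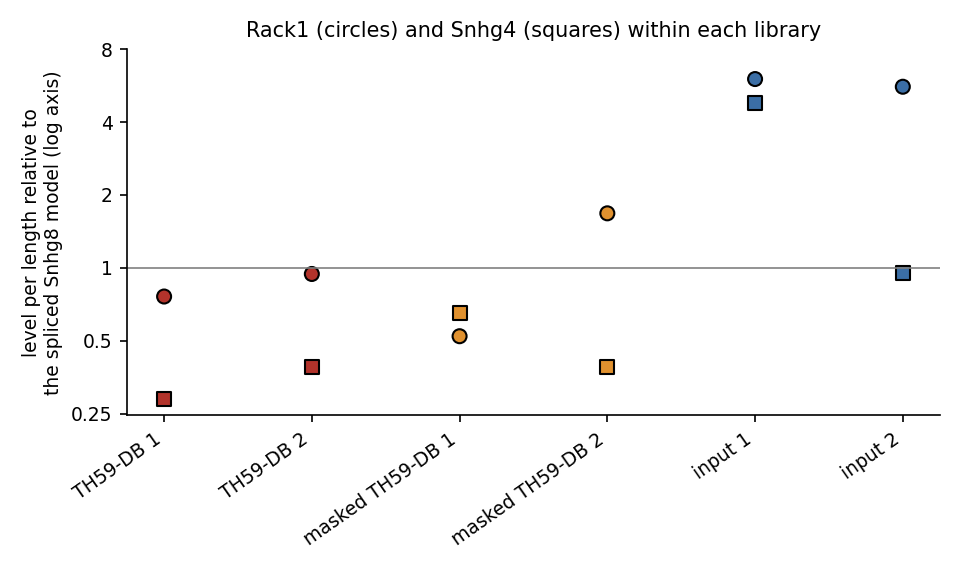
Level per length of Rack1 (circles) and Snhg4 (squares) divided by that of the spliced Snhg8 model in the same library, on a log2 axis, coloured by fraction. Rack1 is 0.522 to 1.68 in the 4 capture libraries and 5.60 to 6.03 in the input.

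The models over snoRNA genes, which the choice of members left out, allow the host to be set beside a hosted snoRNA. The Snora74a model (201 bases, 198 of them the snoRNA) had 51.6 and 25.9 CPM in TH59-DB libraries, 15.2 and 56.4 in masked libraries and 45.9 and 37.1 in the input. Its log2 fold change was 0.37 against masked TH59-DB (SE 0.67, edgeR adjusted p = 0.964) and -0.23 against the input (SE 0.67, edgeR adjusted p = 0.960). Per length, Snora74a over the Snhg4 model was 5.75 and 3.10 in TH59-DB libraries, 0.570 and 3.43 in masked libraries, and 0.594 and 1.75 in the input. Both TH59-DB libraries lay above both input libraries, and the masked libraries overlapped the input. How often such ratios separate over all models was not computed.

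The Snora61 model (213 bases, 62 of them the snoRNA) had 11.1 and 6.95 CPM in TH59-DB libraries, 0 and 5.76 in masked libraries and 21.1 and 9.46 in the input. Its log2 fold change was 1.94 against masked TH59-DB (SE 1.28, edgeR adjusted p = 0.784) and -0.92 against the input (SE 1.21, edgeR adjusted p = 0.891). Per length, it stood at 1.52 and 1.05 of the Snhg12 model in TH59-DB libraries, 0.489 in masked TH59-DB 2 and 3.69 and 1.08 in the input, and both were at 0 reads in masked TH59-DB 1. The groups overlapped between TH59-DB and input. No model lay over Snord95 or Snord96a, so Rack1 could not be set beside its snoRNAs.

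Of 60 other snoRNA host genes on a list written from general knowledge, with earlier results of these data known, 40 had a model and 39 had one that was tested, 74 models in all. Some genes, such as Prrc2a, Rpsa and Ncl, gave several models, which are not independent, and the counts below are of models. By edgeR 0 of the 74 passed in either direction in any comparison. For TH59-DB against input, 64 values were negative and 10 positive, and 49.1% of all tested models were negative and 50.9% positive. The median was -1.37 against 0.03 over all tested models. At an unadjusted p under 0.05, 28 were lower and 1 higher, against 5.14% and 8.86% of all tested models. DESeq2 called 3 lower and 1 higher, against 0.714% and 6.31% of the models it tested. Here and below its calls are counted over all 79 models in these genes, including those that edgeR filtered out. For TH59-DB against masked TH59-DB, 56 were negative and 18 positive, and 40.4% of all tested models were negative and 59.6% positive. The median was -0.61 against 0.30 over all tested models. At an unadjusted p under 0.05, 2 were lower and 2 higher (1.69% and 8.26% of all tested models), and by DESeq2 0 and 1 (0.0% and 4.73%). For masked TH59-DB against input, 60 were negative and 14 positive, and 58.9% of all tested models were negative and 39.7% positive. The median was -0.91 against -0.26. At an unadjusted p under 0.05, 4 were lower and 1 higher (2.95% and 3.86% of all tested models), and by DESeq2 0 and 1 (0.728% and 3.31%). A model was assigned by its gene span, so some may lie in introns, and the Snhg10 model also lies in the span of Scarna13. The shares over all tested models come from models that all had at least 5 reads in TH59-DB 1. They were not matched to these 74 for abundance. Whether the differences from those shares belong to snoRNA hosts was not tested.

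The 3 most abundant of these models lay in Rplp2, Rpsa and Ncl. Rplp2, a ribosomal stalk protein gene, had 475 and 272 CPM in TH59-DB libraries, 759 and 863 in masked libraries and 704 and 1107 in the input (log2 fold change against the input -1.28, edgeR adjusted p = 0.570). Rpsa, of the small ribosomal subunit, had 258 and 196 CPM in TH59-DB libraries, 399 and 755 in masked libraries and 538 and 1121 in the input (-1.76, edgeR adjusted p = 0.343). Ncl, which encodes nucleolin, had 326 and 297 CPM in TH59-DB libraries, 320 and 791 in masked libraries and 494 and 680 in the input (-0.83, edgeR adjusted p = 0.787). All 3 had both TH59-DB libraries below both input libraries, as had 23.5% of all tested models.

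At the other end, models in the spans of the noncoding hosts Snhg10 and Snhg20 had the highest fitted values against masked TH59-DB. The Snhg10 model also had at least 50% of its bases in the span of the Cajal body RNA gene Scarna13. Its reads therefore cannot be assigned to the host transcript alone. It had 269 and 423 CPM in TH59-DB libraries, 93.4 and 92.9 in masked libraries and 46.9 and 60.6 in the input. Its log2 fold change was 2.24 against masked TH59-DB (SE 0.78, edgeR adjusted p = 0.272) and 2.88 against the input (SE 0.80, edgeR adjusted p = 0.0928). Snhg20 had 61.5 and 38.6 CPM in TH59-DB libraries, 5.58 and 20.5 in masked libraries and 22.4 and 17.5 in the input (log2 fold change against masked TH59-DB 2.23, SE 0.71, edgeR adjusted p = 0.221). In both, the TH59-DB libraries lay above the 4 others. The 2 were picked for a high value against masked TH59-DB, so that part is no separate result. Both TH59-DB libraries lay above both masked libraries in 16.1% of tested models and above both input libraries in 22.5%. The lowest values were -2.22 for a 197-base model in Eif4a1 (edgeR adjusted p = 0.696) and -1.80 for a 194-base model in Tbrg4 (edgeR adjusted p = 0.711). Both were highest in masked TH59-DB 1, at 35.01 and 35.5 CPM.

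**Figure D5:**
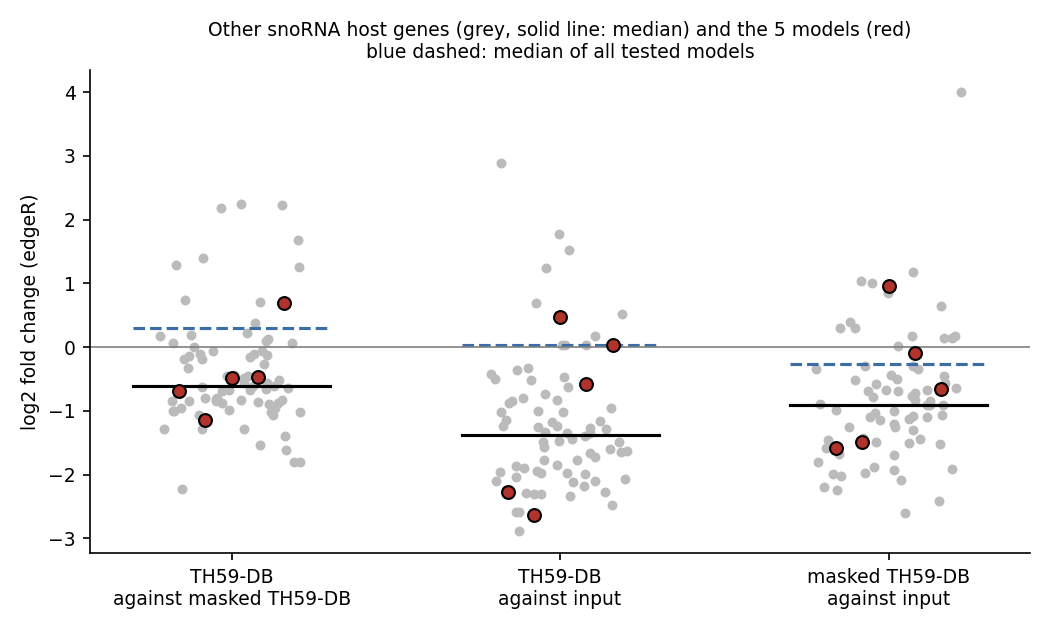
Fitted log2 fold changes of the 74 tested models in other snoRNA host genes (grey, solid line at their median), of the 5 models described (red) and the median of all tested models (blue, dashed). In TH59-DB against input the grey median is -1.37 and the dashed line 0.03, with Rack1 and Snhg4 near the low end.

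The genes most like each host over the 6 libraries were found by Pearson correlation of log2(CPM + 1) among 3387 models in a single gene span with a mean of at least 5 CPM, as a description. For Rack1 they were Cct3 (0.996), Actb (0.995) and Gnai2 (0.995), and Actb had 102 and 83.0 CPM in TH59-DB libraries, 72.6 and 273 in masked libraries and 356 and 482 in the input. For Snhg4 they were Tpt1-ps3 (0.961), Gm46595 (0.931) and Zfp791 (0.916), each highest in input 1. For Snhg8, with both models summed, they were Gtpbp4 (0.966), Exosc6 (0.943) and Gm4617 (0.942). For Snhg12 they were Chd1 (0.996), Ncapg2 (0.996) and Eif4g3 (0.994), each at 0 in masked TH59-DB 1 as Snhg12 was.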

How the data were processed

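RNA of 6 libraries was measured in 3 groups of 2, taken from the titles; the unnumbered library of each group was called 1. The deposited counts are whole reads per assembled transcript model. The deposited FPKM values equal the count over length and a library total, and were used only to recover that total. The submitters' processing notes name cutadapt, HISAT2, Cufflinks, featureCounts and mm10; versions, roles and the strand setting are not given in the sources used here. Tables were joined on all exons (7695 models) or on chromosome, first start and length (264 models).

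Counts were fitted with edgeR 4.0.16 in R 4.3.3 with recovered totals, filterByExpr, TMM, robust quasi-likelihood tests and a group term over all 6 libraries. This tested 5385 models, with a biological coefficient of variation of 0.702. The procedure was run on simulated counts with large known changes. Nearly all were recovered at a low spread, but most were missed at the spread of these data. A model that did not pass may therefore still differ. The alternatives were DESeq2 1.42.0, other totals, no filter, fewer samples, a replicate block, summed models and leaving out each library. Levels are means of 2 libraries with SD. Intervals are 95% exact and cover counting error only, since PCR reads are not independent molecules.

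Members and lists were chosen with earlier results of these data known. Named were all members, both left-out models, and of the other host genes the 3 most abundant and the 2 highest and 2 lowest against masked TH59-DB; the genes most like a host were the 3 with the highest correlation.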

Additional observations from a re-analysis of the deposited data

How the results depend on the processing

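Of 195 recomputed log2 fold changes, 170 kept their sign and side of the threshold, 6 newly passed and 19 turned sign, and 0 had passed as reported. The cause was not tested. With the replicate block, which pairs libraries by a number only (deviations of same-numbered libraries correlated at 0.205 to 0.231), Rack1 in TH59-DB against input was -2.37 (edgeR adjusted p = 0.0479), so 1 member was called lower. In that comparison the block called 118 of all 5385 tested models lower, against 2 as reported. Under that block Snhg12 in the same comparison turned to -0.14, the single-block Snhg8 model in masked TH59-DB against input to 0.029, and no other member was called. DESeq2 also called Rack1 lower, 1 member (-1.92, adjusted p = 0.0291), as were 0.714% of the models it tested. Without TMM, Snhg12 in TH59-DB against input was -0.060. The single-block Snhg8 model in masked TH59-DB against input was 0.21 without TMM, 0.21 with summed counts as totals, 0.074 without a filter, 0.13 with 2 groups only, 0.20 with DESeq2 and 0.30 as the summed gene. Summed, Snhg8 in TH59-DB against input was -0.19.

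Leaving out 1 library at a time, TH59-DB against input ran from -3.43 to -0.87 for Snhg4, -0.071 to 0.99 and -1.17 to 0.50 for the spliced and single-block Snhg8 models and -0.74 to 0.72 for Snhg12. Masked TH59-DB against input ran from -2.21 to 0.43 for Snhg4, -0.50 to 1.16 for the single-block Snhg8 model and -6.71 to 0.30 for Snhg12. TH59-DB against masked TH59-DB ran from -0.29 to 6.76 for Snhg12, -1.30 to -0.19 for Rack1, -1.95 to -0.41 for Snhg4, and -1.04 to -0.20 and -1.01 to -0.26 for the spliced and single-block Snhg8 models. Members called ranged from 0 to 1 for TH59-DB higher than masked TH59-DB, TH59-DB lower than input and masked TH59-DB lower than input. The lone library of a group was assumed to vary like the others.

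Over 13 alternatives, the models called higher and lower over the whole table were 32 to 1479 and 0 to 241 for TH59-DB against masked TH59-DB (76 and 0 as reported), 89 to 689 and 0 to 118 for TH59-DB against input (193 and 2), and 0 to 409 and 0 to 1004 for masked TH59-DB against input (14 and 0). The median of all tested models in these comparisons ran from 0.08 to 5.10, -0.03 to 1.26 and -1.53 to 0.00. Of 39 levels in CPM under other totals or, chosen after seeing the data, without the plus-strand Snhg8 model, 31 moved by more than 1 SD. These other totals are smaller than the library totals, so any level above 0 rises by the change of unit alone. Depth limits Snhg12 most among the members, with at most 28 reads in a library.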
